A study of Mus musculus with 24 samples.

Results

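Electrically stimulated myotubes kept under 5 % O2 (5 % STIM, 6 libraries) were compared gene by gene with unstimulated myotubes kept under 1 % O2 (1 % CTRL, 6 libraries), to see which transcripts tell contraction alone from hypoxia alone. These 12 libraries were chosen by their labels from the 24 of the series, and the 6 unstimulated libraries at 5 % O2 (5 % CTRL) served both as the common reference. All were bulk RNA of C2C12 cells, a mouse skeletal muscle line that fuses into myotubes, at day 5 of a differentiation carried out under 5 % O2. The gas exposure is given as 2 h in every group, and 5 % O2 was the baseline and not a treatment. After these hours the STIM cultures received repeated short trains of electrical pulses, with fresh medium before and after, while the CTRL cultures received none. Whether the CTRL cultures had the same changes of medium, or the same total time under the gas, is not given in the sources used here. The libraries of a group are described as biological replicates of a single cell line, so p-values measure the spread between cultures of that line and not between animals. Bulk RNA cannot tell fewer cells of a type from less RNA per cell.

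Low oxygen slows the prolyl hydroxylases that mark the hypoxia-inducible factors (HIF) for degradation, and the stabilised factors switch on glucose transporters, glycolytic enzymes, vascular peptides and the hydroxylases themselves. Contraction raises cytosolic Ca2+ and mechanical load, and in muscle it is known for immediate early genes, nuclear receptors of the NR4A family and secreted myokines such as chemokines and interleukin-6. Both also tax the ATP supply of the fibre. A direct comparison of the stressors asks which of these responses belong to a single stressor and which are held in common.

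The libraries held 26541858 to 28173745 reads, recovered from the step size of the normalized counts (gene counts divided by the size factor of the library). Of 55487 genes listed, 14541 had at least 10 normalized counts in at least 6 of the 24 libraries and were tested with limma on log2(normalized count + 1). Differences below are on that log2 scale, which understates the change of low genes, and a gene is called at a Benjamini-Hochberg adjusted p under 0.05. The defining myotube genes were abundant, with a summed level of 422540 to 489530 normalized counts in 5 % STIM and 416110 to 454700 in 1 % CTRL. Of 4 markers each of other cell types, 2 immune markers (Cd68, up to 69.4 normalized counts in a library, and Csf1r, up to 25.1), 1 endothelial marker (Tek, up to 13.2), 1 of bone and cartilage (Sp7, up to 12.6) and none of adipocytes reached 10 in any of the 18 libraries, and the adipocyte markers Plin1 and Cidec were at 0 throughout. The library of 1 % CTRL replicate 1 stood apart, with a slope of log2 value on log2 exon length of 0.0945 where the other 5 of its group lay between −0.0367 and −0.0125. Without it, 4428 genes were higher and 4387 lower in 5 % STIM than in 1 % CTRL, and values without it are given below where they matter. Size factors lay between 0.969 and 0.991 in 5 % STIM and between 1.02 and 1.05 in 1 % CTRL, so the scaling of the libraries moves with the oxygen level.

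The stressors left clearly different transcriptomes. Between 5 % STIM and 1 % CTRL, 8783 of 14541 genes (60.4 %) were called, 4393 (30.2 %) higher and 4390 (30.2 %) lower in 5 % STIM. For 5898 genes (40.6 %) each library of a group lay on the same side of every library of the other. Among called genes, 387 were more than 1 log2 unit higher and 483 more than 1 unit lower in 5 % STIM, and 60 and 65 were more than 2 units apart. When each library was scaled to a common total instead of by the size factors of the authors, the split was 3759 higher and 5225 lower, and the median difference over all genes moved from 0.00079 to −0.048.

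Most of what separated the groups was a change under 1 % O2 that stimulation did not call. Of the 4393 genes higher in 5 % STIM, 2689 (61.2 %) were lower in 1 % CTRL than in 5 % CTRL with no call for stimulation, 296 (6.74 %) were higher in 5 % STIM alone, and 480 (10.9 %) rose with stimulation and fell under 1 % O2. Of the 4390 genes lower in 5 % STIM, 2816 (64.1 %) had risen under 1 % O2 alone, 365 (8.31 %) had fallen with stimulation alone, and 472 (10.8 %) had risen under 1 % O2 and fallen with stimulation. In another 412 and 479 genes neither comparison with 5 % CTRL was called. Against 5 % CTRL, stimulation raised 1372 genes (9.44 %) and lowered 1743 (12 %), whereas 1 % O2 raised 4271 (29.4 %) and lowered 4437 (30.5 %). On the common total these became 1860 raised and 1133 lowered by stimulation, and 5670 raised and 3378 lowered by 1 % O2. Among large differences a change under 1 % O2 alone was again the most frequent class on both sides. Of the 387 genes more than 1 log2 unit higher in 5 % STIM, 183 (47.3 %) fell under 1 % O2 alone. Another 135 (34.9 %) rose with stimulation and fell under 1 % O2, against 10.9 % of all genes called higher. Of the 483 on the other side, 359 (74.3 %) rose under 1 % O2 alone. A missing call does not show that a gene stayed at its level in 5 % CTRL.

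**Figure D1:**
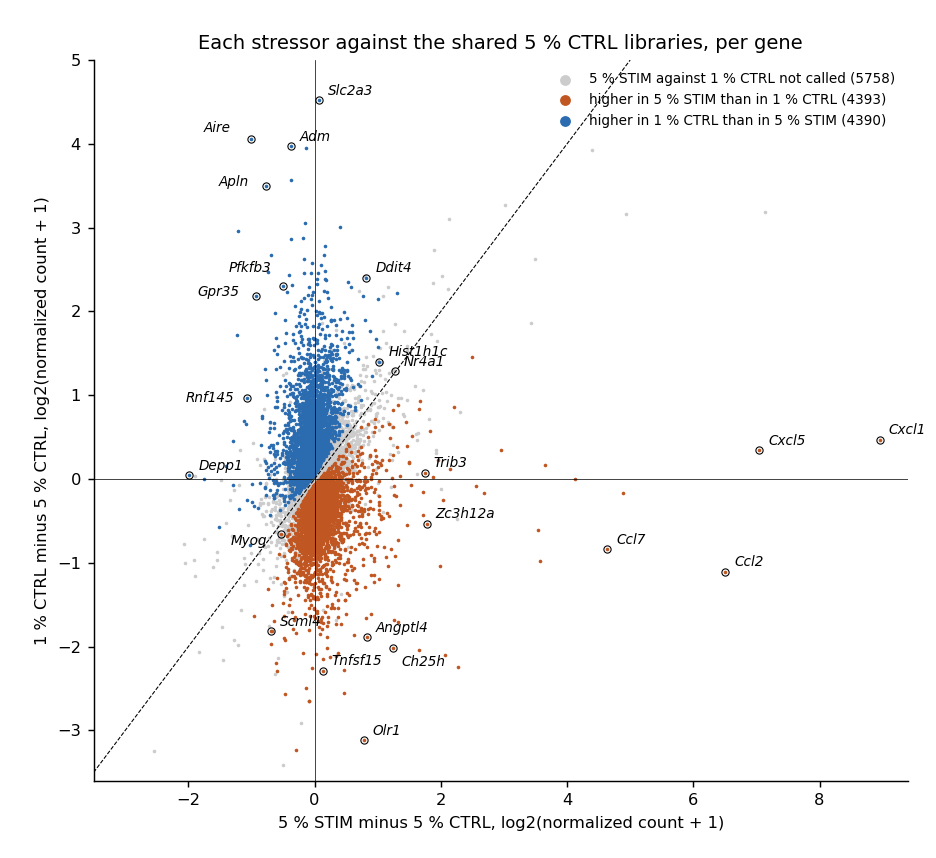
Each point is 1 of the 14541 genes tested, with its difference between 5 % STIM and 5 % CTRL on the x axis and between 1 % CTRL and 5 % CTRL on the y axis, both in log2(normalized count + 1). Coloured points, off the dashed line of equal differences, are genes called higher in 5 % STIM (4393, orange) or in 1 % CTRL (4390, blue). The axes share their 6 control libraries. The chemokine genes Cxcl1, Cxcl5, Ccl2 and Ccl7 lie far to the right, and Slc2a3, Aire, Adm and Apln far up.

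Chemokine genes gave the 4 largest differences in favour of stimulation. The genes ranked here were called, averaged 100 or more normalized counts in whichever group was higher, and had 6 libraries a side that did not overlap. Cxcl1, which encodes an attractant of neutrophils and lies on chromosome 5 from 90891241 to 90893115 (GRCm38), had 2526 to 4674 (median 3112) normalized counts in the 6 libraries of 5 % STIM, 5.71 to 13.6 (median 7.30) in 1 % CTRL and 0 to 12.6 (median 6.69) in 5 % CTRL. The stimulated libraries were all far above the others, which overlapped with each other. The difference between the stressors was 8.49 on the log2 scale (standard error 0.43, adjusted p = 1.55e-13 from limma), and 5 % STIM replicate 4 was the highest library of its group.

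Ccl2, an attractant of monocytes on chromosome 11 from 82035571 to 82037453, ranged over 1632 to 2680.2 (median 1894) in 5 % STIM, 6.71 to 13.6 (median 9.08) in 1 % CTRL and 16.3 to 31.4 (median 19.1) in 5 % CTRL. Unlike Cxcl1, it was called in opposite directions, 6.50 with stimulation and −1.10 under 1 % O2 (standard error of the difference between stressors 0.17, adjusted p = 1.47e-24). Its neighbour Ccl7, which attracts monocytes as well, shared this pattern, with 760.4 to 1133 (median 893) normalized counts in 5 % STIM, 11.6 to 23.6 (median 20.5) in 1 % CTRL and 31.2 to 38.7 (median 35.2) in 5 % CTRL. Cxcl5, a further neutrophil attractant, lay at 802 to 1343 (median 985) in 5 % STIM, 5.75 to 13.3 (median 8.20) in 1 % CTRL and 4.09 to 9.43 (median 7.69) in 5 % CTRL, and 1 % O2 did not move it past the test (adjusted p = 0.125). The differences between the stressors were 7.61 for Ccl2, 6.70 for Cxcl5 and 5.47 for Ccl7. Zc3h12a, an RNase that degrades inflammatory transcripts, was higher as well, at 1011 to 1368 (median 1030.0) against 196 to 239.8 (median 223) and 278 to 368 (median 314) in 1 % CTRL and 5 % CTRL, a difference of 2.31 between the stressors (standard error 0.076). The 4 immune markers summed to 47 to 64 normalized counts in 5 % STIM, 44.1 to 62 in 1 % CTRL and 44.3 to 89.1 in 5 % CTRL, ranges that overlap. Most of this was Cd68 (mean 40.1, 40 and 47.1 in that order) and Csf1r (15.99, 10.46 and 16.36), while Ptprc and Adgre1 reached at most 1.04 and 1.01 in any library.

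Of the 24 genes with the largest differences, 16 matched an entry of the RefSeq promoter table (GRCm38.p6), which gives 250 bases before and 50 after each start. Among the 12 higher in 5 % STIM, 7 matched, and promoters of unmatched genes were not searched. The promoter of Cxcl1 is shown because it alone among the 16 carried a searched NF-κB word. Capitals mark the match, which GGGAAATTC on the other strand overlaps.

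Cxcl1 promoter, chr5:90891134-90891222, plus strand: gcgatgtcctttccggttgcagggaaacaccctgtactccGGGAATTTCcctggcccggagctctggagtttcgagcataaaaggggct

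The words searched on both strands were GGGACTTTC, GGGAATTTC, GGGGATTTC and GGGAAATTC for NF-κB, and 1.03 % of all 32851 promoters in the table held at least 1 of them. The CRE word TGACGTCA (1.79 % of promoters) stood in the promoter of Ch25h. The AP-1 word TGACTCA or TGAGTCA, which are each other's reverse complement (5.2 % of promoters), stood in those of Olr1 and Dhrs9. It also stood in that of Gpr35, a gene higher in 1 % CTRL. The matches of Ch25h and Olr1 began 61 and 60 bases before the start, and their windows are printed with the match in capitals.

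Ch25h promoter, chr19:34475162-34475249, minus strand: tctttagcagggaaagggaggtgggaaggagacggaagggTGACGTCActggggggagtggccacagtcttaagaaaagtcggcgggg
Olr1 promoter, chr6:129507179-129507265, minus strand: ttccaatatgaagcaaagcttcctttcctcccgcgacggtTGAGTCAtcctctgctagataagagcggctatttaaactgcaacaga

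None of the matched genes held CATATTAGG, CTTATATGG or CATATAAGG, the words searched for SRF (0.301 % of promoters). Shares of promoters with each word were not compared between groups of genes, because 72.4 % of the genes tested matched an entry, under the 80 % set for such a check. A match describes letters in a window and not a bound site.

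Tnfsf15, F2rl1 and Dhrs9 fell under 1 % O2 without a call for stimulation. Tnfsf15, a cytokine of the TNF family, had 585 to 707 (median 656) normalized counts in 5 % STIM and 516 to 679.9 (median 599.6) in 5 % CTRL, which overlapped, but 96.9 to 141 (median 119) in 1 % CTRL. Its difference between the stressors was 2.41 (standard error 0.094), whereas stimulation against 5 % CTRL gave 0.13 (adjusted p = 0.376). F2rl1, a receptor cleaved by proteases, lay at 102 to 148 (median 119) in 5 % STIM, 72.3 to 104 (median 89.6) in 5 % CTRL and 9.59 to 22.1 (median 14.2) in 1 % CTRL. Dhrs9, a short-chain dehydrogenase, followed the same order with 135 to 185 (median 169.6), 104 to 158 (median 128) and 22.1 to 36.4 (median 30.7). For both, stimulation missed the test (adjusted p = 0.0529 and 0.0731).

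Angptl4, Olr1 and Wnt11 moved both ways from 5 % CTRL. Angptl4, a secreted inhibitor of lipoprotein lipase that is also known as a HIF target, had 10435 to 10920.0 (median 10630.0) normalized counts in 5 % STIM, 5525 to 6242 (median 6042) in 5 % CTRL and 1391 to 1739 (median 1673) in 1 % CTRL. No library of a group overlapped another, and the difference between the stressors was 2.71 (standard error 0.039, adjusted p = 1.61e-33). It went against the other HIF targets, most of which were higher in 1 % CTRL. Olr1, a receptor for oxidised lipoprotein, lay at 107 to 141 (median 119), 67.0 to 74.3 (median 70.0) and 5.71 to 12.5 (median 6.27) in the same order of groups. Wnt11, a Wnt ligand, lay at 172 to 216 (median 193), 105 to 142 (median 126) and 26.6 to 47.9 (median 34.1). Each gene rose with stimulation and fell under 1 % O2, and the differences between the stressors were 3.89 and 2.48.

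**Figure D2:**
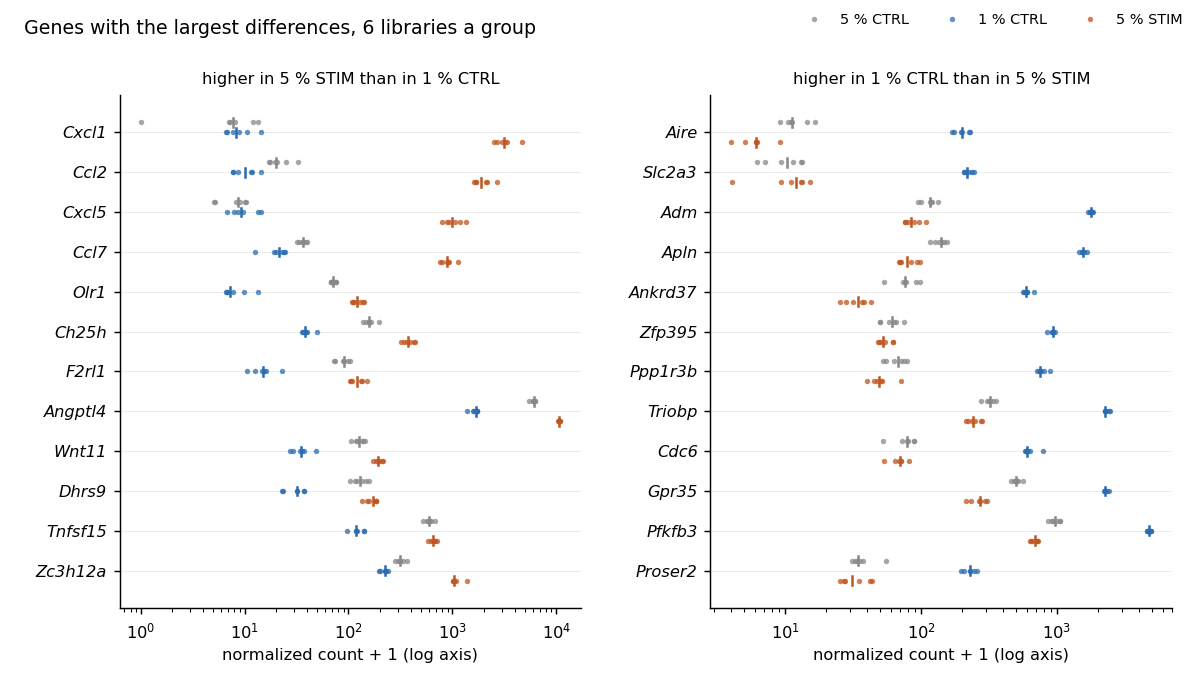
Normalized counts plus 1 (log axis) of the 12 genes highest and the 12 lowest in 5 % STIM against 1 % CTRL, with 1 point per library, 6 libraries a group and a bar at the median. The left panel has 4 chemokine genes at 760.4 or more normalized counts in each 5 % STIM library, and in the right panel 1 % CTRL is above both other groups for each of the 12 genes.

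Of the 12 genes furthest to the side of 1 % CTRL, 4 were on the HIF list (Adm, Apln, Ankrd37 and Zfp395) and 2 on the glycolysis list (Slc2a3 and Pfkfb3). Adm, which encodes the vasodilator adrenomedullin and lies on chromosome 7 from 110627661 to 110629820, had 1699 to 1830.4 (median 1771) normalized counts in 1 % CTRL, 74.7 to 108 (median 83.2) in 5 % STIM and 93.2 to 131 (median 116) in 5 % CTRL. The hypoxic libraries were all far above the rest, and the stimulated libraries, lower by −0.37 against 5 % CTRL, overlapped it (difference between stressors −4.35, standard error 0.079, adjusted p = 8.31e-30). Apln, the vascular peptide apelin on chromosome X from 48025146 to 48034853, lay at 1452 to 1651 (median 1541) in 1 % CTRL, 67.9 to 97.1 (median 77.2) in 5 % STIM and 116 to 154 (median 138) in 5 % CTRL, and Slc2a3, a glucose transporter, at 205 to 244 (median 219), 3.06 to 14.3 (median 11.1) and 5.24 to 12.3 (median 9.38). For Slc2a3 the stimulated and the reference libraries overlapped. The differences between stressors were −4.27 for Apln and −4.44 for Slc2a3.

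Pfkfb3, the enzyme whose product activates phosphofructokinase, reached 4621 to 4927 (median 4756) normalized counts in 1 % CTRL against 634 to 727 (median 685) in 5 % STIM, with 857 to 1048 (median 963) in 5 % CTRL. Ppp1r3b, a subunit that brings protein phosphatase to glycogen, had 713 to 889 (median 754), 38.8 to 70.2 (median 48.3) and 51.3 to 77.5 (median 66.3) in the same order. Their differences were −2.80 (standard error 0.044) and −3.94 (standard error 0.11). Ankrd37, an ankyrin repeat gene, lay at 564 to 673 (median 596) in 1 % CTRL and 24.5 to 41.6 (median 33.2) in 5 % STIM, a difference of −4.17. Genes on the opposite strand overlap 26.4 % of its exon bases, and reads were assigned blind to strand, so the count is uncertain.

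The remaining 6 genes of this side were Aire, Zfp395, Triobp, Cdc6, Gpr35 and Proser2. Aire, a regulator known from the thymus, lies on chromosome 10 from 78030022 to 78043610, on the strand of its glycolytic neighbour Pfkl (8942 ± 281 normalized counts in 1 % CTRL, 2907 ± 155 in 5 % STIM, mean ± SD, n = 6). It had 169 to 227 (median 198) normalized counts in 1 % CTRL, 3.03 to 8.11 (median 5.11) in 5 % STIM and 8.14 to 15.5 (median 10.2) in 5 % CTRL, the lowest difference of all named genes (−5.06, standard error 0.17). Cdc6, which licenses replication origins, had 580.4 to 788 (median 599.8), 52.6 to 80.8 (median 68.8) and 51.9 to 88 (median 78.2) in the same order of groups. The highest of its 1 % CTRL libraries was replicate 1 at 788, and without that library the difference of −3.21 became −3.15. Gpr35, a G protein-coupled receptor, lay at 2228 to 2417 (median 2263), 215 to 304 (median 269.6) and 462 to 566 (median 497). Zfp395, Triobp and Proser2 differed by −4.09, −3.24 and −2.79.

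Of the 9 genes on this side with a promoter entry, 4 held ACGTG, the core of the HIF element, on either strand (Ankrd37, Gpr35, Pfkfb3 and Triobp). The word is short, and 19.6 % of all promoters in the table held it, as did 2 of the 7 matched genes higher in 5 % STIM (Cxcl1 and Wnt11). That share is per promoter, whereas a gene was counted if any of its promoters held the word. The windows of Ankrd37 and Pfkfb3, both higher in 1 % CTRL, are printed beside that of Wnt11, which was lower there.

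Ankrd37 promoter, chr8:46000047-46000100, minus strand: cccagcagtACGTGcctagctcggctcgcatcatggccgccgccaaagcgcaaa
Pfkfb3 promoter, chr2:11553945-11554029, minus strand: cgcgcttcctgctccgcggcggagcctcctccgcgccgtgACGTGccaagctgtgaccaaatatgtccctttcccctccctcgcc
Wnt11 promoter, chr7:98835011-98835095, plus strand: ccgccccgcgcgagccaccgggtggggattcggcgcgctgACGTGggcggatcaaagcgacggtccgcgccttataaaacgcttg

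In a smaller set the stressors pushed a gene in opposite directions from 5 % CTRL, 480 genes (3.30 %) up with stimulation and down under 1 % O2 and 472 (3.25 %) the reverse. Ch25h, which makes a hydroxylated cholesterol, had 317 to 432 (median 377) normalized counts in 5 % STIM, 138 to 196 (median 157) in 5 % CTRL and 34.4 to 48.9 (median 37.5) in 1 % CTRL, with no overlap between groups. Atf3, a stress-induced transcription factor, lay at 289 to 346 (median 302), 139.9 to 213 (median 152) and 64.4 to 111 (median 82.3) in that order, with a difference between the stressors of 1.87. Tcim and Rab39b, a small GTPase, behaved in the same way (2.17 and 2.07), although genes on the opposite strand overlap 18.7 % and 18.6 % of their exon bases. In the reverse direction, Rnf145, a ubiquitin ligase of the endoplasmic reticulum, had 1431 to 1562 (median 1491) in 5 % CTRL, 640.0 to 785 (median 707) in 5 % STIM and 2822 to 3232 (median 2852) in 1 % CTRL, and all 3 groups were apart. Apln, Aire, Gpr35 and Ankrd37, described above, were the other 4 of the 5 genes in this direction with the largest smaller change.

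The stressors also shared a response. Above 5 % CTRL in both were 513 genes (3.53 %), and below it in both 821 (5.65 %). For 1023 of these 1334 genes (7.04 % of all genes tested) the 95 % interval of the difference between stressors lay within 0.5 log2 units of 0, 354 of those that rose and 669 of those that fell. The difference was not called in 204 of the 354 and 309 of the 669, and in the rest it was called though small. The band is wider than the median changes given below, so small changes in the same direction pass it easily. Both comparisons share the 6 libraries of 5 % CTRL, so these counts describe the genes and test nothing. Where the difference between the stressors was itself called, the larger change was more often that under 1 % O2, in 212 against 56 of the genes that rose and in 460 against 46 of those that fell. The median change of the genes that rose was 0.308 with stimulation and 0.475 under 1 % O2, and of those that fell −0.169 and −0.314. The sizes were modest, and both changes passed 0.5 log2 units in 113 of the rising and in 25 of the falling genes. On the common total, 842 genes rose and 457 fell in both, so which direction held more genes turned with the scaling.

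Nr4a1 rose to overlapping levels under both. This immediate early nuclear receptor had 282 to 327 (median 300.2) normalized counts in 5 % CTRL, 679 to 786 (median 729) in 5 % STIM and 679.5 to 828 (median 734) in 1 % CTRL. Every stressed library stood above every library of 5 % CTRL, with changes of 1.27 and 1.29 and a difference between the stressors of −0.017 (95 % interval −0.14 to 0.10). Gem, a GTPase that restrains Ca2+ channels, had 133 to 158 (median 152), 301 to 431 (median 355) and 354 to 395 (median 366) in the same order, with a difference of −0.055 (95 % interval −0.21 to 0.10). Lpin1, a phosphatidate phosphatase, lay at 209.5 to 296 (median 261), 452 to 509 (median 468) and 462 to 594 (median 547). Its difference of −0.16 (95 % interval −0.32 to −0.0029) missed the test at an adjusted p of 0.0731, but on the common total it was called at −0.21.

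Other shared genes rose unequally. Hist1h1c, a linker histone, rose by 1.03 with stimulation and 1.4 under 1 % O2, and had 482 to 590.3 (median 540.1) normalized counts in 5 % CTRL, 959.7 to 1169 (median 1141) in 5 % STIM and 1278 to 1539 (median 1407) in 1 % CTRL. Kif21b, a kinesin, Ier3, an early response gene, and Pnrc1, a nuclear receptor coregulator, were likewise higher in 1 % CTRL, with differences of 5 % STIM minus 1 % CTRL of −0.56, −0.70 and −0.32. Ier3 had 473 to 559 (median 503) normalized counts in 5 % CTRL, 861 to 1192 (median 973) in 5 % STIM and 1592 to 1686 (median 1620.4) in 1 % CTRL. Pik3ip1, which restrains phosphoinositide 3-kinase, was the exception among these 8 genes, at 47.8 to 68.5 (median 56.9) in 5 % CTRL, 123 to 161 (median 147) in 5 % STIM and 96.9 to 119 (median 103) in 1 % CTRL, with a difference of 0.44 (adjusted p = 4.73e-05).

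Among genes lowered by both, Myog, the transcription factor that drives terminal muscle differentiation, was the most abundant named. It had 29456 to 31682 (median 30737) normalized counts in 5 % CTRL, 18549 to 23167 (median 21448) in 5 % STIM and 17829 to 20251 (median 19609) in 1 % CTRL, and 1 % CTRL replicate 1 was the lowest of its group. The fall was −0.53 with stimulation and −0.66 under 1 % O2, and the difference of 0.13 (adjusted p = 0.0125) was no longer called on the common total (0.078). Col4a3bp, a ceramide carrier, and Lfng, which modifies Notch receptors, fell to like levels. Col4a3bp had 3674 to 4070.1 (median 3962) in 5 % CTRL, 2629 to 2908 (median 2723) in 5 % STIM and 2619 to 3019 (median 2638) in 1 % CTRL. Lfng had 194 to 245 (median 225), 142 to 167 (median 149) and 139 to 190.0 (median 153). The 95 % intervals of their differences between stressors were −0.056 to 0.10 and −0.20 to 0.14.

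Otud1, a deubiquitinase, had 481 to 631 (median 526) in 5 % CTRL, 219 to 286 (median 271) in 5 % STIM and 292 to 352 (median 303) in 1 % CTRL, and was lower with stimulation than under 1 % O2 (−0.24, adjusted p = 0.00332). Scml4, a polycomb-like gene, was in contrast lower in 1 % CTRL, at 359 to 443 (median 395) against 720.0 to 947 (median 888) in 5 % STIM and 1341 to 1523 (median 1389) in 5 % CTRL. Vmn1r43, a receptor gene of the vomeronasal family, Trib2, a pseudokinase, and Atp8b1, a phospholipid flippase, completed the 8. Their differences between stressors were 0.58, 0.34 and 0.18, the last not called (adjusted p = 0.0531 from limma). Without 1 % CTRL replicate 1 the difference of Atp8b1 was called, at 0.21 (adjusted p = 0.0286).

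**Figure D3:**
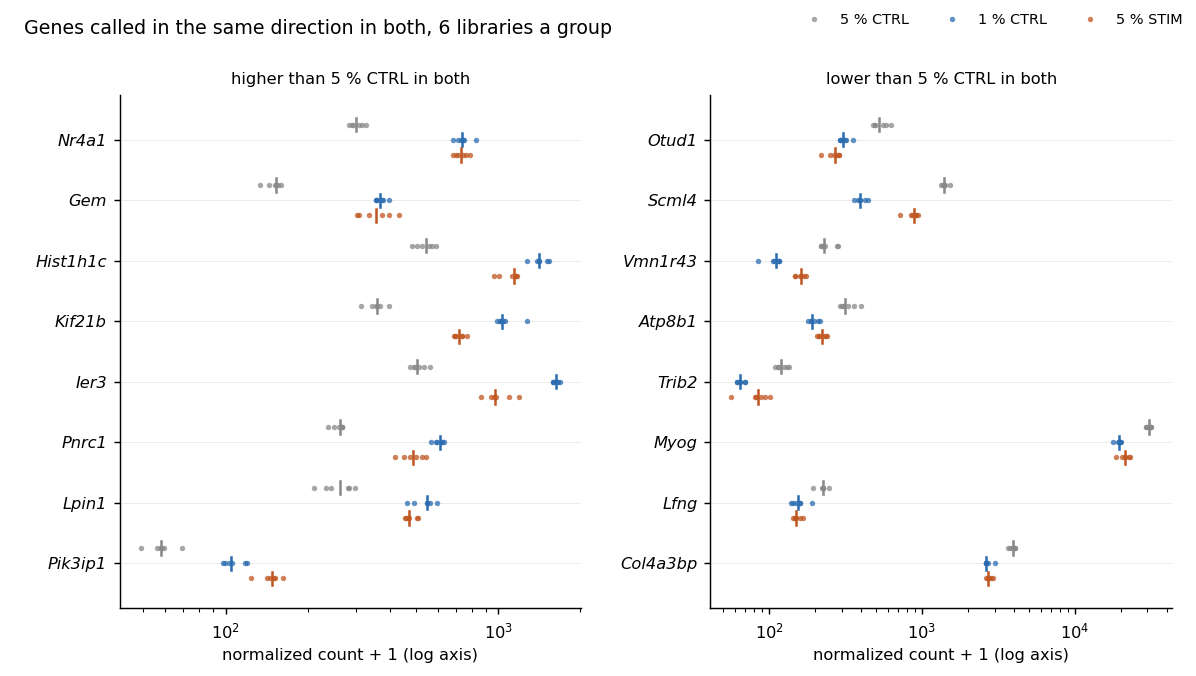
Normalized counts plus 1 (log axis) of the 8 genes raised and the 8 lowered against 5 % CTRL by both stressors with the largest smaller change, 1 point per library, 6 libraries a group and a bar at the median. Both stressed groups lie to the same side of 5 % CTRL for each gene, and they overlap each other for Nr4a1, Gem, Lpin1, Atp8b1, Trib2, Myog, Lfng and Col4a3bp.

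Gene lists were read against the background of 30.2 % of all genes higher and 30.2 % lower in 5 % STIM, and against the median difference of 0.00079 over all genes tested. Against 5 % CTRL, stimulation raised 9.44 % and lowered 12 % of all genes, and 1 % O2 raised 29.4 % and lowered 30.5 %. Of 43 HIF targets outside glycolysis, 34 were lower and 6 higher in 5 % STIM than in 1 % CTRL (median −0.79). Under 1 % O2, 35 rose and 5 fell against 5 % CTRL, and with stimulation 14 rose and 12 fell (median −0.02). Mxi1, a repressor that opposes Myc, and Hilpda, a lipid droplet protein, had 1906 ± 91.6 and 834 ± 37.4 normalized counts in 1 % CTRL (mean ± SD, n = 6), 415 ± 20.1 and 269 ± 29.7 in 5 % STIM and 367 ± 20.1 and 234 ± 9.04 in 5 % CTRL. Both belong to the 12 targets that rose with either stressor, far less with stimulation. Ddit4, a brake on mTORC1, did so too, at 253 ± 33.9 normalized counts in 5 % CTRL, 444 ± 14.1 in 5 % STIM and 1359 ± 262 in 1 % CTRL, where replicate 1 was lowest. Vegfa, the vascular growth factor, rose by 0.18 with stimulation and 0.50 under 1 % O2, and the stressors differed by −0.32 (adjusted p = 1.69e-10). Angptl4 and Hmox1, the heme oxygenase, led the 6 targets on the other side, and Hmox1 rose with stimulation (0.89) with 1847 ± 49.5 normalized counts in 1 % CTRL and 1848 ± 87.4 in 5 % CTRL.

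Glycolysis and glucose uptake lay on the same side, with 21 of 30 genes lower and 4 higher in 5 % STIM (median −0.39). Slc2a1, the widespread glucose transporter, had 12888 ± 269 normalized counts in 1 % CTRL, 2614 ± 127 in 5 % STIM and 2813 ± 117 in 5 % CTRL, and Eno2, an enolase, 3295 ± 173, 764 ± 51.9 and 782 ± 57.5. Slc2a4, the insulin-responsive transporter of muscle, was 1 of the 4 higher in 5 % STIM, at 84.7 ± 21.1 against 48.7 ± 12 in 1 % CTRL and 77.3 ± 13.6 in 5 % CTRL. Hk2, a hexokinase, rose with both, by 1.13 under 1 % O2 and 0.13 with stimulation. The kinases of pyruvate dehydrogenase went to different sides. Pdk1 was higher in 1 % CTRL (6486 ± 238 against 3912 ± 126, difference −0.73), and Pdk4 higher in 5 % STIM (1666 ± 205 against 405 ± 48.9, difference 2.04), with 4100.4 ± 116 and 891 ± 39.4 in 5 % CTRL.

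Demethylases and hydroxylases that use oxygen as a substrate were mostly lower in 5 % STIM, 18 of 28 against 6 higher (median −0.28). Normalized counts of the HIF hydroxylase Egln3 averaged 15443 ± 487 in 1 % CTRL and 4076 ± 79.9 in 5 % STIM, and those of the histone demethylase Kdm3a 5771 ± 277 and 1950.3 ± 78.5. Stimulation lowered both slightly (−0.21 and −0.14). Angiogenic ligands did not move as a block, with 10 of 18 higher and 6 lower in 5 % STIM. Adm, Apln, Vegfa and the constrictor peptide Edn1 were on the lower side. Edn1 had 217 ± 28.2 normalized counts in 5 % STIM, 423 ± 26.2 in 1 % CTRL and 369 ± 19.9 in 5 % CTRL, so it fell with stimulation. On the higher side were Angptl4 and the growth factors Pdgfc (3474 ± 111 against 1305 ± 48.9, and 3244 ± 139 in 5 % CTRL) and Vegfc (273 ± 18.7 against 112 ± 16.8, and 165 ± 15.4).

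S-phase genes lay almost wholly on the side of 1 % O2, with 30 of 32 lower and 2 higher in 5 % STIM (median −1.15, and −1.08 without 1 % CTRL replicate 1). Of the 32, 30 rose and 2 fell under 1 % O2, while none rose and 2 fell with stimulation (median −0.019). Uhrf1, a chromatin factor of replication forks, had 2104 ± 250.4 normalized counts in 1 % CTRL, 343 ± 52.5 in 5 % STIM and 384 ± 48.4 in 5 % CTRL. Mcm5 and Mcm2, helicase subunits, had 1609.5 ± 186 and 1572 ± 104 in 1 % CTRL, 337 ± 39.5 and 429.6 ± 38.9 in 5 % STIM, and 343 ± 47.0 and 494 ± 48.7 in 5 % CTRL. In Uhrf1 and Mcm5 the library of 1 % CTRL replicate 1 was the highest of its group, and without it the differences of −2.62 and −2.25 became −2.56 and −2.19. The 2 exceptions were the transcription factors E2f2 (2938 ± 142, 4432 ± 195 and 6083 ± 158) and E2f8. Of 22 mitotic (G2/M) genes, 12 were higher and 5 lower in 5 % STIM. Ccnb1, the mitotic cyclin, had 549.5 ± 37.6 normalized counts in 5 % STIM, 304 ± 42.2 in 1 % CTRL and 428 ± 27.3 in 5 % CTRL. The summed level of 5 myoblast markers was 2534 to 2818 normalized counts in 5 % STIM, 2206 to 2507 in 5 % CTRL and 2240.3 to 3286 in 1 % CTRL, highest in replicate 1. The 5 did not move together. In the same order of groups Pax7 averaged 137, 179 and 287, and Myf5 194, 149 and 231. Cdk1 averaged 459, 352 and 517, Mki67 1358, 1250 and 1239, and Ccnb1 549.5, 428 and 304. The part of these markers in the values of the lists was not tested.

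NF-κB targets, chemokines and cytokines stood on the side of stimulation, with 28 of 34 higher and 3 lower in 5 % STIM (median 1.13). Against 5 % CTRL, stimulation raised 29 and lowered 2, and 1 % O2 raised 10 and lowered 12. Nfkbia, the inhibitor that NF-κB induces, had 800.5 to 1056 (median 846) normalized counts in 5 % STIM, 244 to 290.1 (median 261) in 1 % CTRL and 195 to 254 (median 225) in 5 % CTRL, a rise in both that was far larger with stimulation (1.95 against 0.22). Il6, the myokine interleukin-6, moved in opposite directions at low levels, with 65.9 to 92.9 (median 85.7), 1.92 to 6.71 (median 3.86) and 15.3 to 22.0 (median 20.3). Vcam1, an adhesion molecule, had 2144 ± 315, 1154 ± 82.8 and 1025 ± 67.1 in that order. The 3 genes on the other side were Cxcl12, Il33 and Tnfaip3. Tnfaip3, which restrains NF-κB signalling, rose with both stressors, by 0.72 with stimulation and 1.11 under 1 % O2, and Cxcl12, a constitutive chemokine, had 1759.8 ± 81.8 normalized counts in 5 % STIM, 2359 ± 112 in 1 % CTRL and 1929.7 ± 50.7 in 5 % CTRL. Of the 8 genes in the list of immune markers, 3 passed the filter. Csf1r was higher in 5 % STIM than in 1 % CTRL (0.58, adjusted p = 0.0429), Itgam (0.33, adjusted p = 0.137) and Cd68 (−0.0047, adjusted p = 0.984) were not called, none was called against 5 % CTRL with stimulation, and Csf1r and Itgam fell under 1 % O2. On the common total none of the 3 was called in any of these comparisons. Their part in the chemokine values was not tested.

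Of 38 immediate early genes tested, 23 were higher and 8 lower in 5 % STIM than in 1 % CTRL (median 0.54). Stimulation raised 13 and lowered 10, where 9.44 % and 12 % of all genes were raised and lowered. Under 1 % O2, 7 rose and 24 fell, where 29.4 % and 30.5 % of all genes did. Egr2, a zinc finger factor, had 777 to 930.2 (median 796) normalized counts in 5 % STIM, 671 to 849.6 (median 759) in 5 % CTRL and 196 to 251 (median 230.1) in 1 % CTRL, and the first pair overlapped (adjusted p = 0.185). Arc, known from synapses, fell in both, with 257 to 365 (median 311) in 5 % CTRL, 159 to 261 (median 198) in 5 % STIM and 55.1 to 83.7 (median 63.4) in 1 % CTRL. Myc, a growth regulator, and Ptgs2, a cyclooxygenase, moved apart, Myc at 2696 ± 177 in 5 % STIM, 2029 ± 158 in 5 % CTRL and 1061 ± 94.8 in 1 % CTRL, and Ptgs2 at 8949 ± 917, 6079 ± 499 and 3306 ± 131. The feedback genes of MAP kinase signalling had 14 of 24 higher and 7 lower in 5 % STIM. Ereg, a ligand of the EGF receptor, lay at 2598 ± 162 in 5 % STIM and 688 ± 46.2 in 1 % CTRL, and Spry1, an inhibitor of receptor signalling, at 175 ± 10.8 and 315 ± 43.8, with 2252 ± 208 and 401 ± 36.4 in 5 % CTRL. Genes on the opposite strand overlap 24.4 % of the exon bases of Spry1. Targets of Ca2+ through CREB and NFAT were divided, with 9 of 22 higher and 6 lower in 5 % STIM (median 0.03) and 8 raised and 3 lowered by stimulation, against 9 and 9 under 1 % O2.

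The unfolded protein and integrated stress response stood on the side of stimulation, with 20 of 32 genes higher and 5 lower in 5 % STIM (median 0.37). Stimulation raised 18 and lowered none, and 1 % O2 raised 4 and lowered 16. Trib3, a pseudokinase induced by this response, had 704 to 783 (median 764) normalized counts in 5 % STIM, 210.5 to 275 (median 229.7) in 1 % CTRL and 213 to 249 (median 222) in 5 % CTRL, and the libraries of 1 % CTRL and 5 % CTRL overlapped. Atf4, the factor that directs the integrated stress response, had 12375 ± 399 in 5 % STIM, 6395 ± 517 in 1 % CTRL and 9604 ± 597 in 5 % CTRL. Chac1, which cleaves glutathione, and Herpud1, of endoplasmic reticulum degradation, differed by 1.49 and 1.16 and fell under 1 % O2 (−0.44 and −0.51). Antioxidant genes had 16 of 28 higher and 4 lower in 5 % STIM (median 0.21). Slc7a11, the cystine carrier, rose with stimulation (0.82), and the glutathione enzyme Gclc changed by 0.10 with stimulation and −0.94 under 1 % O2. Heat-shock chaperones gave 8 of 21 higher and 7 lower, and 6 and 9 on the common total.

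Of 25 genes of cholesterol synthesis, 9 were higher in both stressors, against 3.53 % of all genes. Stimulation raised 19 and lowered 1, and 1 % O2 raised 11 and lowered 7. Hmgcs1, an early enzyme of the pathway, had 6785 to 7555 (median 7169.8) normalized counts in 5 % CTRL, 10448 to 10927 (median 10779) in 5 % STIM and 9817 to 11315 (median 10076) in 1 % CTRL. The 95 % interval of its difference between stressors was −0.0085 to 0.14. Without 1 % CTRL replicate 1 that difference was called, at 0.093 (adjusted p = 0.0161 from limma). Genes on the opposite strand overlap 12.1 % of its exon bases. The genes of the sterol-sensing INSIG proteins went to different sides. Insig1 was higher in 5 % STIM (3382 ± 125 against 1762 ± 65.1, with 1889.8 ± 71.3 in 5 % CTRL), and Insig2, which also responds to HIF, higher in 1 % CTRL (2171 ± 71.9 against 1566 ± 41.6, with 1502 ± 52.7). In all, 15 genes of the list were higher and 5 lower in 5 % STIM (median 0.17).

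**Figure D4:**
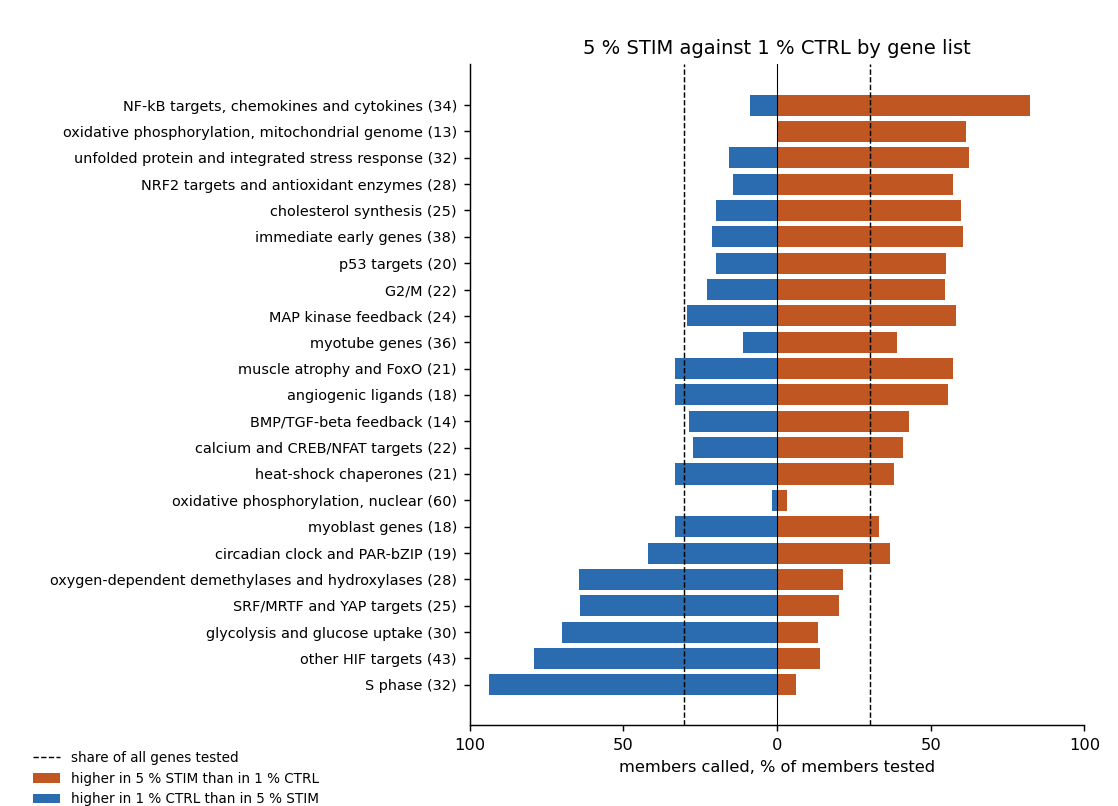
For each list with at least 10 genes tested (number in parentheses), bars give the percentage of its members called higher in 5 % STIM than in 1 % CTRL (orange, to the right) or lower (blue, to the left), and dashed lines mark the 30.2 % of all genes tested. NF-κB targets reach furthest right with 28 of 34, and S-phase genes furthest left with 30 of 32.

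Atrophy and FoxO genes were raised by stimulation in 17 of 21 cases and lowered in 2, against 9.44 % and 12 % of all genes. Under 1 % O2, 9 rose and 6 fell, where 29.4 % and 30.5 % of all genes did, and 9 were higher in both. Fbxo32, a muscle ubiquitin ligase, rose under both, with 1792 ± 67.5 in 5 % CTRL, 4055 ± 318 in 5 % STIM and 2820.0 ± 123 in 1 % CTRL. Cdkn1b, a cell cycle inhibitor, rose under both as well, more under 1 % O2 (1.09 against 0.49). Trim63, a second such ligase, rose with stimulation (0.81) and gave 0.029 under 1 % O2 (adjusted p = 0.483). Klf15, a metabolic transcription factor, was at 24 ± 6.29 in 5 % STIM and 3.39 ± 2.14 in 1 % CTRL, and Cited2, a coregulator, at 1862 ± 186 and 1054 ± 133. Depp1, a FoxO target, fell with stimulation, at 87.9 to 127 (median 94.9) in 5 % STIM, 323 to 435 (median 413) in 1 % CTRL and 339.6 to 452 (median 394) in 5 % CTRL. Between the stressors 12 genes of the list were higher and 7 lower in 5 % STIM. Targets of p53 had 11 of 20 higher and 4 lower, among them the stress cytokine Gdf15 (117 ± 25.6 against 27.9 ± 6.6) and the kinase Plk3 (679 ± 75.4 against 180.2 ± 22.5).

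Targets of SRF and YAP, which read actin and tension, were lowered by stimulation in 22 of 25 cases and raised in none (median −0.22), against 12 % of all genes lowered. Under 1 % O2, 10 rose and 11 fell, and 16 were lower and 5 higher in 5 % STIM than in 1 % CTRL. Myl9, a myosin light chain, was lower in 5 % STIM (2797 ± 132 against 5366 ± 303, with 3536 ± 206 in 5 % CTRL), and Ccn2, a matricellular growth factor, was higher (37180.0 ± 1818 against 13594 ± 1099, with 47038 ± 3285), having fallen more under 1 % O2, where replicate 1 was lowest. Genes on the opposite strand overlap 23.2 % of its exon bases. Thbs1, an adhesive matrix protein, had 115150.0 ± 4087, 63373 ± 2653 and 112670.0 ± 3487. Of 14 feedback genes of BMP and TGF-β, 6 were higher and 4 lower in 5 % STIM. Tgif1, a repressor of that pathway, differed by 1.48, and Id2, an inhibitor of myogenic factors, by −0.81 after falling with stimulation (−0.86). Clock genes were split, 7 of 19 higher and 8 lower, and 7 and 9 on the common total. The clock repressor Ciart had 140.3 ± 16.0 in 5 % STIM and 378 ± 13.4 in 1 % CTRL. The nuclear receptor Rora was higher in 1 % CTRL (−1.07), and the repressor Cry2 higher in 5 % STIM (0.97).

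**Figure D5:**
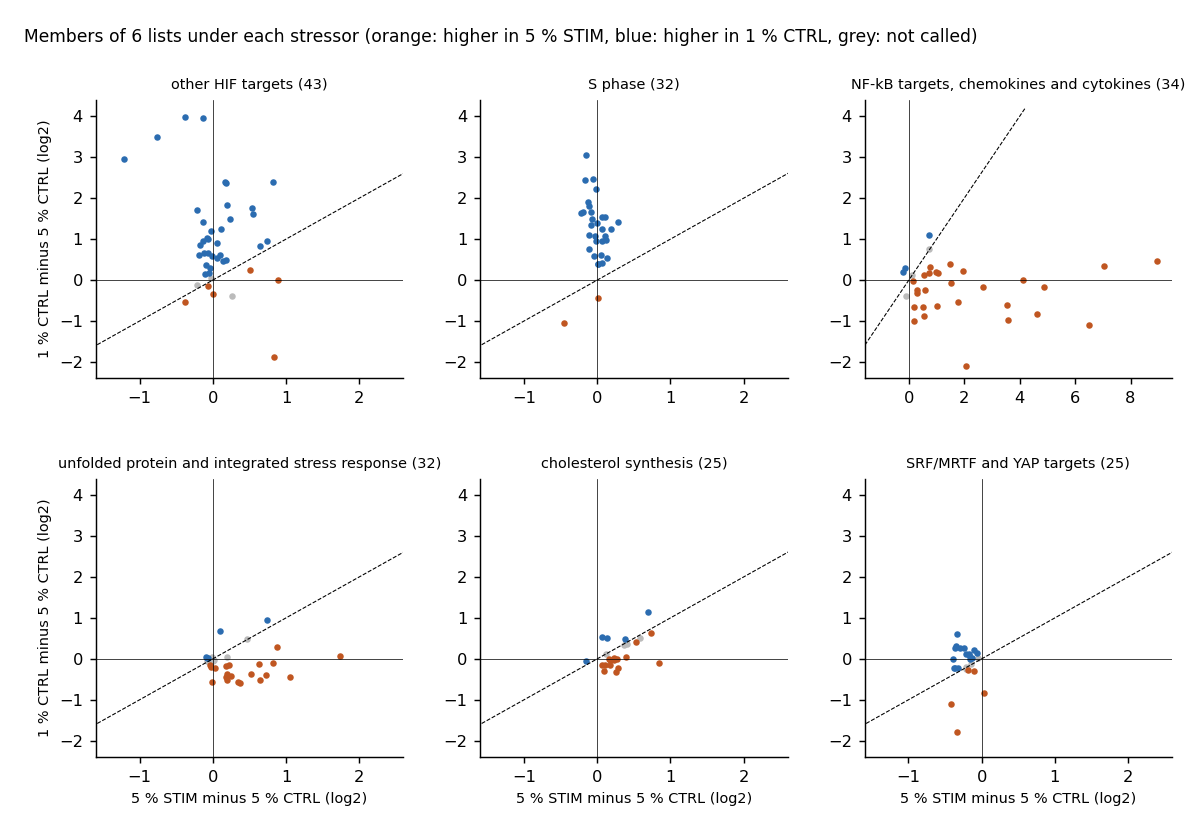
Members of 6 lists by their difference from 5 % CTRL in 5 % STIM (x axis) and in 1 % CTRL (y axis), both in log2(normalized count + 1), with a dashed line of equal differences and a wider x axis for NF-κB targets. HIF targets and S-phase genes spread along the y axis (medians 0.83 and 1.24), and NF-κB targets along the x axis (median 0.87). Cholesterol genes had medians of 0.26 on the x axis and 0.0091 on the y axis. Of these 25 genes, 15 were called higher and 5 lower in 5 % STIM than in 1 % CTRL. The axes share their control libraries.

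Nuclear genes of respiration had the smallest share called between the stressors, 5 % against 60.4 % of all genes, among lists with at least 10 genes tested. Of 60 nuclear genes of oxidative phosphorylation, 2 were higher and 1 lower in 5 % STIM than in 1 % CTRL, where 30.2 % of all genes were called on each side. On the common total 1 was higher and 8 lower, and without 1 % CTRL replicate 1 there were 1 higher and 3 lower. Against 5 % CTRL, stimulation raised 2 and lowered 2, and 1 % O2 raised 4 and lowered 1. These counts depended on that library and on the scaling. Without it, stimulation raised 10 and lowered 2, and 1 % O2 raised 18 and lowered 1. On the common total, stimulation raised 4 and 1 % O2 raised 17, and neither lowered any. Of 13 mitochondrial genome transcripts, 8 were higher and none lower in 5 % STIM (median 0.28), a called share near that of all genes. The transcript mt-Atp6, of a subunit of the ATP synthase, had 11736 ± 1335 in 5 % STIM, 5887 ± 623 in 1 % CTRL and 13747 ± 2004 in 5 % CTRL. The others include mt-Nd1 (61563 ± 2972 against 40976 ± 2368, with 78510.0 ± 2482 in 5 % CTRL) and mt-Nd2 (39515 ± 2204, 23283 ± 1069 and 46588 ± 1902), subunits of complex I that both fell under both stressors. Nuclear copies of mitochondrial sequence can share such reads. Among 36 myotube genes, 14 were higher and 4 lower in 5 % STIM, and 8 and 9 on the common total, so no direction held. Myh4, an adult fast myosin with near-identical paralogs whose reads may be split between them, was lower in 5 % STIM (14590.0 ± 433 against 21964 ± 1252, with 15865 ± 1101 in 5 % CTRL). Myoblast genes gave 6 of 18 higher and 6 lower, with Pax7, of satellite cells, higher in 1 % CTRL (287 ± 7.62 against 137 ± 20.9, with 179 ± 22.1 in 5 % CTRL). Markers of other lineages were mostly under the filter, with 1 of 8 adipocyte, 1 of 8 endothelial and 2 of 8 bone and cartilage genes tested, and all 4 (Pparg, Vwf, Runx2 and Sox9) were called higher in 5 % STIM than in 1 % CTRL. Only 1 of the 2 bone and cartilage genes stayed called on the common total, and only 1 without 1 % CTRL replicate 1. Of the 4 genes, Runx2 was well expressed, at 2002 ± 77.3 normalized counts in 5 % STIM and 1166 ± 33.0 in 1 % CTRL.

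Where both stressors met (1 % STIM, 6 libraries), Cxcl1 had a mean of 167 and Ccl2 of 94.5 normalized counts, between the values of the single stressors. Adm had 1061 and Nr4a1 1702, against 86.7 and 729.7 in 5 % STIM and 1769.8 and 739 in 1 % CTRL.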

How the data were processed

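Single-end reads of stranded mRNA libraries from 24 cultures were aligned by the authors to GRCm38 with STAR 2.5.4b, checked with FastQC 0.11.7 and assigned to genes with RSEM 1.3.0 at default settings, that is, blind to strand. As deposited, the expression signal of the authors is a gene count divided by the DESeq2 size factor of its library (version not given in the sources used here), with no pooling. All values of a library were whole multiples of a single step (tolerance 0.01 reads), which returned the reads and the size factors. The other deposited table holds the authors' own fold changes, p-values and calls and was not used. No column of values was left out.

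Groups came from the labels. Gene identifiers were matched to GENCODE M21 (55227 of 55487, 99.53 %), and 14541 genes with at least 10 normalized counts in at least 6 libraries entered a fit of all 4 groups (limma 3.58.1 in R 4.3.3, trend and robust) on log2(normalized count + 1). Its 3 contrasts were 5 % STIM minus 1 % CTRL, 5 % STIM minus 5 % CTRL and 1 % CTRL minus 5 % CTRL, and p-values were adjusted by Benjamini-Hochberg over all genes tested, with a threshold of 0.05. A gene moved alike if both changes from 5 % CTRL were called in 1 direction and the 95 % interval of the difference between stressors lay within 0.5. The scripts were tested on simulated data. Tables and figures were made in Python 3.11.15 with pandas 2.3.3 and numpy 2.4.6. Of the genes tested, 26 share their symbol with another tested gene.

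The genes named were the 12 with the largest difference to each side (called, without overlap, averaging 100 or more in the higher of the groups), the 8 in each shared class and the 5 in each opposite class with the largest smaller change, and, from every list, the called members that differed most (4 at most). Other list members, and the common-total check of lists, were chosen after their values were seen. The groups, the members and the gene lists were chosen with earlier results of these data known, so counts over lists are descriptions without a test. Counts on the recovered reads were also tested with edgeR 4.0.16 and DESeq2 1.42.0. Each library held 26541858 to 28173745 reads, so genes near the filter carry larger counting error.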

Additional observations from a re-analysis of the deposited data

Results flagged for a closer look

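Of 333 groups of 6 libraries examined (each of the 108 genes with values in the text in 3 groups, and 9 groups of library measures), 35 (10.51 %) had a library whose gap to its nearest neighbour was unusually large against the range of the group. Chance alone gives about 1 in 20. The slope of log2 value on log2 exon length was 0.09451 in 1 % CTRL replicate 1, apart from the rest of its group. The same library was apart for 13 genes. It was the highest of 1 % CTRL for Cdc6 (787.8 normalized counts), Kif21b (1278), Col4a3bp (3019), Rnf145 (3232), Uhrf1 (2580), Mcm5 (1967), Rora (517.4), Kdm3a (6319) and Vcam1 (1318). It was the lowest for Myog (17830), Ccn2 (11420), Depp1 (322.6) and Ddit4 (843.9). Without that library the largest move of a difference between the stressors among the genes with values was 0.198 on the log2 scale (Klf15) and the median move 0.0235.

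In 5 % STIM, replicate 4 was apart as the highest library for Cxcl1 (4673), Zc3h12a (1368), Egr2 (930.2) and Nfkbia (1056). Replicate 1 of that group was the highest for Ddit4 (471.8), Cxcl12 (1917), Mcm2 (503.5) and Cdkn1b (1232). Single libraries of 5 % STIM were apart for Slc2a1 (2364 in replicate 6, lowest), Slc7a11 (1922 in replicate 3, highest) and Depp1 (126.7 in replicate 2, highest). In 1 % CTRL the others were Ch25h (48.93 in replicate 2, highest), Zfp395 (848.1 in replicate 5, lowest), Trim63 (1220 in replicate 3, highest) and, in replicate 6, Ankrd37 (672.8, highest), Lfng (190, highest) and Vmn1r43 (83.37, lowest). In 5 % CTRL they were Proser2 (54.48) and Scml4 (1523) in replicate 3 and E2f2 (6402) in replicate 1, all highest, and mt-Nd1 (73690 in replicate 6, lowest). The causes were not tested.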

How the results depend on the processing

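The numbers of genes higher (4393) and lower (4390) in 5 % STIM than in 1 % CTRL kept within 1.5 times under every alternative tried, which were a pseudocount of 10, no filter, a threshold of 0.01, a fit of 3 groups, array weights, removal of the gene length trend, the common total, edgeR (4413 and 4446), DESeq2 (4370 and 4351), voom with TMM (4409 and 4421) and leaving out single libraries (4266 to 4428 and 4225 to 4398). An adjusted p under 0.01 left 1944 genes called for stimulation against 5 % CTRL, 325 higher and 467 lower in both, 314 up with stimulation and down under 1 % O2, 260 the reverse, and 612 moved alike. These fell because the threshold is stricter. The common total gave 842 genes higher in both, among them all 513 of the main result, and 457 lower in both, all of them among the 821. Without single libraries, 2666 to 3469 genes were called for stimulation and 8378 to 8955 for 1 % O2, 433 to 612 were higher and 663 to 906 lower in both, 418 to 532 and 398 to 503 moved in opposite directions, and 845 to 1161 moved alike. edgeR gives no interval and so no number of genes moved alike.

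Of 1188 recomputed differences of the 108 genes with values, 1178 kept their direction and side of the threshold, 3 lost their call, 5 gained one and 2 changed sign. Nr4a1 became 0.0036 with array weights and Col4a3bp −0.0286 on the common total, and neither was called in either form. No pairing of the samples by replicate number was seen. Same-numbered libraries deviated from their group means with correlations of −0.0436 to 0.0633 between 5 % STIM and 1 % CTRL, −0.0733 to 0.15 between 5 % STIM and 5 % CTRL, and −0.0333 to 0.0875 between 1 % CTRL and 5 % CTRL. Low correlations do not show that cultures with the same number were handled apart. With the replicate block 4419 genes were higher and 4397 lower in 5 % STIM than in 1 % CTRL, 3190 were called for stimulation and 8730 for 1 % O2, and 541 were higher, 832 lower and 1048 alike in both, with 491 and 487 in opposite directions.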
